A study of Mus musculus with 13 samples.

Results

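Adipokines are hormones and other proteins that fat cells release, and 9 of their genes were followed here in mouse fat after deletion of *Lmna* in adipocytes: *Adipoq*, *Lep*, *Retn*, *Cfd*, *Rbp4*, *Rarres2*, *Nampt*, *Apln* and *Nrg4*. They were found by matching the Ensembl identifiers of the count table to gene symbols, which gave 1 row for each of the 9 among 33618 gene rows, and all 9 passed the filter on low counts. Parametrial white adipose tissue (pmWAT), the fat around the uterus and ovaries, was taken whole from female mice and its polyadenylated RNA was sequenced, 1 library per mouse. The 7 *Lmna* fl/fl mice carried loxP sites around exons 10 and 11 of *Lmna* and no Cre. The 6 *Lmna* iADKO mice carried the same floxed alleles and 1 copy of *Adipoq*-CreERT2, a Cre recombinase that tamoxifen switches on. All 13 mice were given tamoxifen at 50 mg/kg on 5 consecutive days at 12 to 14 weeks of age, lived at 22 °C, and were dissected 2 weeks later. Because the controls had no Cre, loss of *Lmna* and activity of CreERT2 cannot be told apart. The Cre is driven by regulatory sequence of *Adipoq*, which is itself one of the 9 genes.

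White fat stores triglyceride and also works as an endocrine organ. Leptin reports the size of the fat stores to the brain, adiponectin raises insulin sensitivity, and adipsin activates complement, while chemerin and resistin act on immune cells and on metabolism. In lipodystrophies, diseases in which fat is lost, blood leptin and adiponectin are often low. Each hormone acts through receptors on other tissues, and several of those receptors are also expressed in fat. Only mRNA was measured here, not hormone in blood.

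The promoters of 3 of these genes are shown because their mRNAs are compared most closely in the results: *Adipoq*, whose promoter also names the Cre line, *Lep*, which had the widest spread between mice, and *Cfd*, the most abundant. Each is the 200 bases before the annotated start of the canonical transcript (GRCm39 genome, GENCODE vM39), written 5′ to 3′ on the gene's strand. Capitals mark matches, on either strand, to the core of a C/EBP element (TTGCNNAA), to the element bound by the factor NF-Y (CCAAT) or to a TATA box of the form TATAAA.
Adipoq, chr16:22965086-22965285, plus strand: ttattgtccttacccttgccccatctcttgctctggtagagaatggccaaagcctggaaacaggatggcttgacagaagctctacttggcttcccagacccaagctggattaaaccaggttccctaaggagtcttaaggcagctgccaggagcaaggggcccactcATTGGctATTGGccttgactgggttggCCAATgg
Lep, chr6:29060016-29060215, plus strand: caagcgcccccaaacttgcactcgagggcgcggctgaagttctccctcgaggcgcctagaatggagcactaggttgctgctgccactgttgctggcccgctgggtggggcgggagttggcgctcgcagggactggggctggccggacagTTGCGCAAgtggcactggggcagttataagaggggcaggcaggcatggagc
Cfd, chr10:79726468-79726667, plus strand: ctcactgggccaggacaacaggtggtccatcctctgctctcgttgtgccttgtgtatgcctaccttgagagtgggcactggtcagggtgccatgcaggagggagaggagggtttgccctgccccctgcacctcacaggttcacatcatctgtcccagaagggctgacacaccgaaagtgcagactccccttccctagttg
In *Adipoq*, CCAAT was matched 3 times, all within the last 34 bases. In *Lep*, a single match, TTGCGCAA, lay 51 to 44 bases before the start, and *Cfd* held none of these letters. *Rbp4* held TTATGCAA 111 to 104 bases before its start and TATAAA 11 to 6 bases before it, and the other 5 genes held no match. Among 14133 promoters of tested protein-coding genes, 6.33% held TTGCNNAA, 31.6% CCAAT and 5.57% TATAAA. A match is only a description of these letters.

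Between 18854223 and 19776491 reads per library were counted on genes. Levels are in CPM, read counts divided by the size of the library and scaled by the trimmed mean of M values (TMM), whose factors were 0.892 to 1.02 in fl/fl and 1.05 to 1.10 in iADKO. The targeted gene *Lmna* averaged 84.7 ± 7.51 CPM over fl/fl libraries (SD, n = 7) against 96.7 ± 11.5 CPM over iADKO libraries (SD, n = 6), and the log2 fold change of 0.19 did not pass (standard error 0.079, edgeR adjusted p = 0.0785). It was not lower in iADKO, and the counts cover the whole gene, so every direction given here is between libraries as labelled. Adipocyte RNA was present in every library: the 8 adipocyte markers (*Plin1*, *Plin4*, *Cidec*, *Fabp4*, *Pparg*, *Cebpa*, *Lipe* and *Acvr1c*) summed to 9951 to 18563 CPM in fl/fl and 6721 to 11396 CPM in iADKO. No marker in any of the cell type lists was at 0 in all libraries, which cannot identify the depot. Skeletal muscle markers summed to 17.8 to 377 CPM in fl/fl, highest in replicate 5, and 11.4 to 210 CPM in iADKO. One library of each genotype lay toward the other genotype. Fl/fl replicate 5 had the lowest adipocyte sum of its genotype (9951 CPM) and the highest macrophage sum (5296 CPM, where the median of its genotype was 2394 CPM), and iADKO replicate 6 had the highest adipocyte sum of its genotype (11396 CPM) and the lowest macrophage sum (3075 CPM). Several results are therefore also given without both libraries.

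Of the 9 adipokine genes, 7 were lower in iADKO than in fl/fl, *Rarres2* was higher and *Apln* did not pass the test, and relative to the adipocyte markers, described further below, only 3 of the 7 remained lower. Over all 16753 genes tested, 30.5% passed the same test, 16.3% lower and 14.1% higher in iADKO. The largest decreases were in *Nrg4*, *Rbp4*, *Retn* and *Lep*, to between 0.399 and 0.467 of the fl/fl level. The 6 iADKO values all lay below the 7 fl/fl values for *Nrg4* and *Rbp4*, which held for 3.93% of all genes tested. The test was edgeR's quasi-likelihood test with Benjamini-Hochberg adjustment over all genes tested, and with 1 library per mouse its p-values measure the spread between mice.

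**Figure D1:**
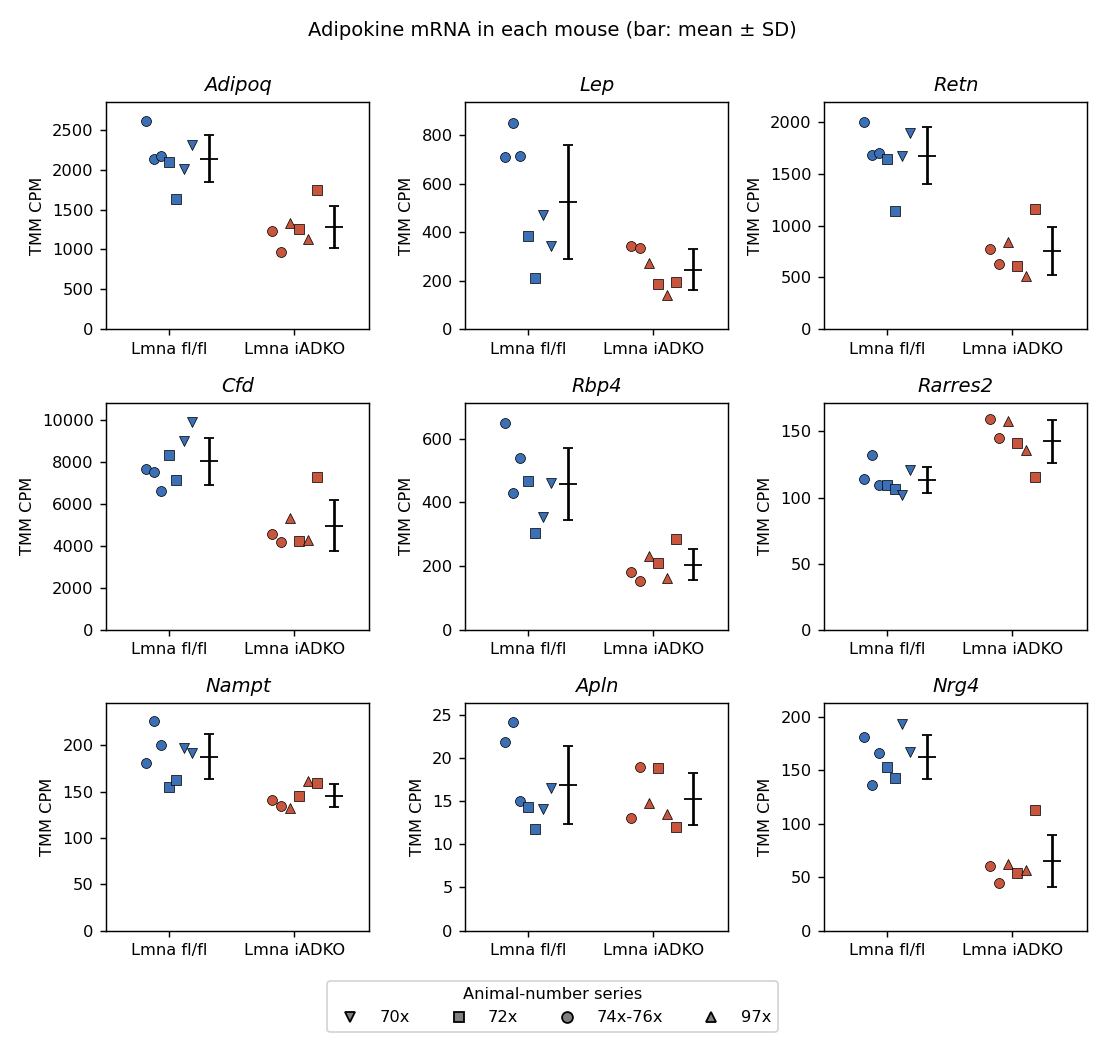
Level of each adipokine mRNA in every mouse, in TMM-scaled CPM (vertical axis, from 0), for 7 fl/fl mice (blue) and 6 iADKO mice (red), with the shape giving the series of the animal number and the black bar the mean ± SD. Rbp4 and Nrg4 do not overlap between genotypes, Rarres2 is the gene whose iADKO mean is higher, and the 3 highest Lep values are fl/fl mice of 1 number series.

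Secreted factors typical of adipocytes are described first. *Adipoq* (ENSMUSG00000022878, chr16:22964106-22976810, plus strand) encodes adiponectin, the insulin-sensitizing hormone of adipocytes. It was at 1639, 2132 and 2609 CPM (lowest, median and highest) in the 7 fl/fl mice and at 961, 1245 and 1747 CPM in the 6 iADKO mice. Only iADKO replicate 6 reached above the lowest fl/fl mouse, replicate 5. It averaged 2139 ± 295 CPM in fl/fl (SD, n = 7) and 1276 ± 263 CPM in iADKO (SD, n = 6), with a log2 fold change of -0.75 (standard error 0.13, edgeR adjusted p = 0.00155).

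*Lep* (ENSMUSG00000059201, chr6:29060216-29073877, plus strand) encodes leptin, the satiety hormone whose level follows fat mass. It ranged from 210 CPM through a median of 471 CPM to 850 CPM in fl/fl and from 142 CPM through 234 CPM to 345 CPM in iADKO. The groups overlapped, since 2 fl/fl mice, replicates 5 and 7, were below the highest iADKO mouse. Its mean fell from 526 ± 235 CPM in fl/fl (SD, n = 7) to 246 ± 83.8 CPM in iADKO (SD, n = 6), and its log2 fold change of -1.10 had the widest error of the 9 (standard error 0.32, edgeR adjusted p = 0.0228). The call was lost without iADKO replicate 4 (log2 fold change -1.03, edgeR adjusted p = 0.0522) and where genes of low counts were not filtered out (edgeR adjusted p = 0.0625).

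*Retn* (ENSMUSG00000012705, chr8:3705324-3710689, plus strand) encodes resistin, which in mice comes from adipocytes and opposes insulin action. Its lowest, median and highest levels were 1140, 1686 and 2000 CPM in fl/fl and 509, 701 and 1165 CPM in iADKO. One mouse of each genotype, the same 2 libraries as for *Adipoq*, made the ranges meet. The log2 fold change was -1.15 (standard error 0.18, edgeR adjusted p = 0.000675).

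*Cfd* (ENSMUSG00000061780, chr10:79726668-79728496, plus strand) encodes adipsin, or complement factor D, the serine protease that cleaves factor B in the alternative complement pathway. Its level was 6629, 7641 and 9897 CPM (lowest, median and highest) in fl/fl and 4158, 4406 and 7252 CPM in iADKO. Apart from iADKO replicate 6, all iADKO mice were at or below 5316 CPM, under every fl/fl mouse. The log2 fold change was -0.69 (standard error 0.15, edgeR adjusted p = 0.00462).

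*Rbp4* (ENSMUSG00000024990, chr19:38105066-38113754, minus strand) encodes the carrier of retinol in blood, made by liver and by fat. It was at 304, 460 and 648 CPM in fl/fl and at 152, 196 and 285 CPM in iADKO, again as lowest, median and highest. The genotypes did not overlap, with the closest pair once more fl/fl replicate 5 and iADKO replicate 6. The log2 fold change was -1.17 (standard error 0.18, edgeR adjusted p = 0.00073).

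*Nrg4* (ENSMUSG00000032311, chr9:55121336-55234128, minus strand) encodes neuregulin 4, an EGF-family ligand of ErbB4 that is abundant in brown fat and acts on the liver. Its lowest, median and highest levels were 136, 166 and 193 CPM in fl/fl and 44.4, 58.5 and 112 CPM in iADKO. All iADKO mice but 1 lay between 44.4 and 61.9 CPM and replicate 6 stood above that range, still below every fl/fl mouse. *Nrg4* had the largest decrease of the 9, with a log2 fold change of -1.33 (standard error 0.18, edgeR adjusted p = 0.000426). Of 4 brown adipocyte markers, *Ucp1* and *Cox8b* were lower in iADKO, beside 16.3% of all genes tested, and *Elovl3* and *Cidea* did not pass. The 4 markers summed to 27.3 to 120 CPM in fl/fl and 15.3 to 48.8 CPM in iADKO. Their part in the *Nrg4* result was not tested.

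The remaining 3 genes are made by many cell types. *Nampt* (ENSMUSG00000020572, chr12:32869544-32903368, plus strand) encodes visfatin, the rate-limiting enzyme of NAD salvage, which is also found outside cells. It was at 155, 192 and 227 CPM (lowest, median and highest) in fl/fl and at 132, 143 and 161 CPM in iADKO. Only iADKO replicates 5 and 6 exceeded the lowest fl/fl mouse, and the log2 fold change was -0.37 (standard error 0.085, edgeR adjusted p = 0.0060). Relative to the adipocyte markers this direction turned, as given below.

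*Rarres2* (ENSMUSG00000009281, chr6:48546630-48549762, minus strand) encodes chemerin, a chemoattractant for macrophages and dendritic cells that is also an adipokine. It was at 102, 110 and 132 CPM in fl/fl and at 116, 143 and 159 CPM in iADKO (lowest, median and highest). Of the 6 iADKO mice, 5 exceeded every fl/fl mouse, and replicate 6 was the one within the fl/fl range. The log2 fold change was 0.33 (standard error 0.078, edgeR adjusted p = 0.00654). Macrophage markers moved with it: 5 of 9 were higher in iADKO and none lower, beside 14.1% higher and 16.3% lower over all genes tested. These markers summed to 2035 to 5296 CPM in fl/fl and 3075 to 5297 CPM in iADKO. Their part was not tested.

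*Apln* (ENSMUSG00000037010, chrX:47114019-47123775, minus strand) encodes apelin, the peptide ligand of the receptor *Aplnr*. It was the least abundant of the 9, at 11.7, 15.0 and 24.2 CPM in fl/fl and 12.0, 14.1 and 19.0 CPM in iADKO. The ranges lay within each other, and the log2 fold change of -0.14 (standard error 0.17, edgeR adjusted p = 0.541) was smaller than its error.

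Without fl/fl replicate 5 and iADKO replicate 6, an alternative chosen after their levels were seen, the same 7 genes were lower and *Rarres2* higher. The log2 fold changes were then -0.93 for *Adipoq*, -1.20 for *Lep*, -1.42 for *Retn*, -0.88 for *Cfd*, -1.39 for *Rbp4*, -1.61 for *Nrg4*, -0.45 for *Nampt* and 0.35 for *Rarres2*. All 7 decreases were larger without these libraries than with them. Because both had been picked as lying toward the other genotype, this largely follows from the choice and adds no support. Over all genes 3910 were then called lower and 3282 higher, against 2737 and 2367 with every library. With all 13 libraries, exons of several members lie under a gene on the other strand, and whether reads were counted by strand is not given in the sources used here. *Rbp4* shares 222 bp with *Ffar4* (log2 fold change -0.71, edgeR adjusted p = 0.0200), *Rarres2* 931 bp with *Lrrc61* (-0.35, edgeR adjusted p = 0.00388) and *Nrg4* 1595 bp with *Fbxo22* (0.11, edgeR adjusted p = 0.21). Reads from such a pair cannot be told apart if strand was not used.

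Compared per kilobase of exon, the 9 genes kept 1 order in both genotypes. *Cfd* was highest, at 8313 ± 1177 CPM per kb in fl/fl (SD, n = 7) and 5145 ± 1247 CPM per kb in iADKO (SD, n = 6), and was second among all genes tested. It was followed in level per kb by *Adipoq* (939 in fl/fl and 560 in iADKO), *Retn* (620 and 279), *Rbp4* (321 and 143) and *Lep* (157 and 73.2). *Rarres2* (38.8 and 48.8), *Nampt* (35.4 and 27.4), *Nrg4* (11.5 and 4.59) and *Apln* (4.44 and 4.01) came last. Within single mice this order was broken for 3 neighbours only: *Rarres2* was above *Nampt* in 5 of 7 fl/fl mice, *Lep* above *Rarres2* in 5 of 6 iADKO mice and *Nrg4* above *Apln* in 4 of 6 iADKO mice. The lengths are of all annotated exons together, which for *Nrg4* is 14147 bp, so its level per kb is a low estimate for any shorter transcript. Together the 9 mRNAs made up 1.24 ± 0.12% of counts in fl/fl (SD, n = 7) and 0.838 ± 0.167% in iADKO (SD, n = 6), before TMM scaling.

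The adipocyte markers fell too, so each member was also compared with them in the same library. All 8 markers were lower in iADKO, with a median log2 fold change of -0.78, and their mean log2 level was lower in iADKO (difference -0.83, two-sided exact permutation p = 0.00175). Whole tissue was sequenced, so fewer adipocytes and less RNA per adipocyte cannot be told apart. When each library was scaled so that the mean log2 level of the 8 markers was equal, the median of all genes tested moved by 0.83, from a log2 fold change of 0.033 to 0.86, and 87.6% of genes were called higher and 0.591% lower. A value on this scale is a ratio to adipocyte marker RNA.

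*Nrg4*, *Retn* and *Rbp4* fell by more than the mean of the 8 adipocyte markers. *Nrg4* was at -0.54 on the log2 scale relative to that mean (standard error 0.13, edgeR adjusted p = 0.000829), *Retn* at -0.35 (standard error 0.12, edgeR adjusted p = 0.0119) and *Rbp4* at -0.33 (standard error 0.12, edgeR adjusted p = 0.0160). Under TMM scaling the log2 fold changes of single markers ran from -0.61 for *Fabp4* to -1.04 for *Plin4* and -1.11 for *Cidec*. Those of *Retn* (-1.15) and *Rbp4* (-1.17) were near *Plin4* and *Cidec*. On this scale *Retn* (lower in iADKO) and *Rarres2* (higher) did not overlap between genotypes. The share of all genes without overlap on this scale is not given, so this is only a description. *Adipoq* (0.07, standard error 0.11, edgeR adjusted p = 0.528), *Cfd* (0.098, standard error 0.14, edgeR adjusted p = 0.507) and *Lep* (-0.21, standard error 0.30, edgeR adjusted p = 0.509) did not pass, which for *Lep* leaves room for a change of either sign. *Nampt* (0.46, edgeR adjusted p = 0.00849), *Apln* (0.73, edgeR adjusted p = 0.00373) and *Rarres2* (1.17, edgeR adjusted p = 5.48e-05) were higher relative to the markers, as most genes were. Against the shift of 0.83, *Nampt* and *Apln* lay below it and *Rarres2* above it. The 3 decreases held in all 15 alternatives run for this scale. These were each of the 13 libraries left out in turn, 4 of the 8 markers and a block for the replicate number. A block for the series of animal numbers, described further below, was not run on this scale.

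**Figure D2:**
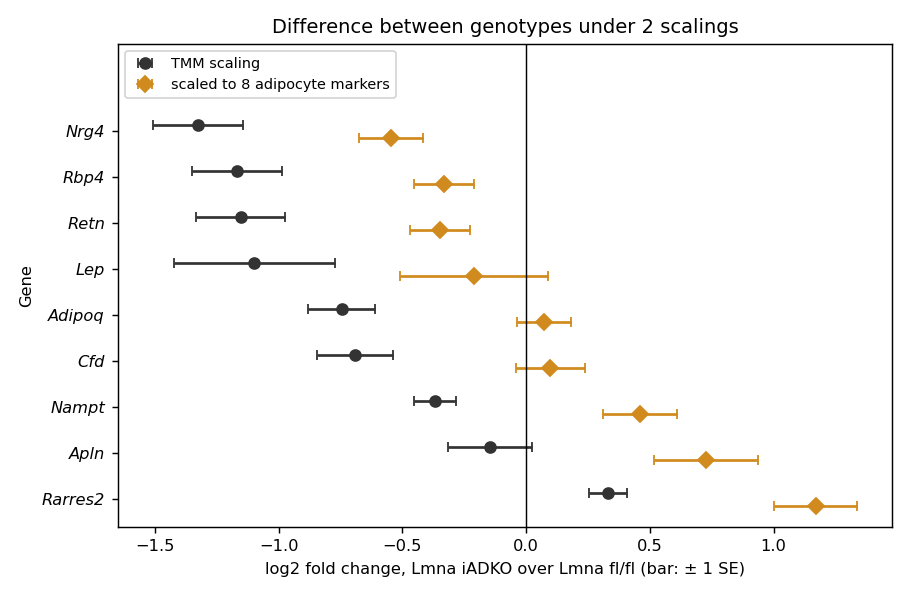
Log2 fold change of each adipokine gene, iADKO over fl/fl (horizontal axis; bars ± 1 standard error), under TMM scaling (black circles) and scaled to 8 adipocyte markers (orange diamonds). Nrg4, Retn and Rbp4 stay below 0 under both scalings, Adipoq, Cfd and Lep come near 0 relative to the markers, and Nampt and Apln change sign.

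Within a genotype the members differed widely in how steady they were between mice. Pooled over both genotypes, *Rarres2* and *Nampt* were the steadiest, with SDs of log2 CPM of 0.12 and 0.19 in fl/fl and 0.17 and 0.12 in iADKO. The SD of *Adipoq* was 0.20 in fl/fl and 0.28 in iADKO and that of *Cfd* 0.20 and 0.31, beside 0.20 and 0.17 for the median gene. *Lep* had the widest spread, 0.72 in fl/fl and 0.51 in iADKO. Over both genotypes together it exceeded 99.3% of the 1000 genes nearest in level, and edgeR's biological coefficient of variation was 0.392 against a trend of 0.141 at that level. *Nrg4* was at the 94.7th percentile and *Rbp4* at the 93.9th among their own 1000 nearest genes. For *Nrg4* the spread was 2.48 times as large in iADKO (0.45) as in fl/fl (0.18), and iADKO replicate 6 was the mouse apart from the rest. The highest fl/fl mouse had 4.06 times the *Lep* mRNA of the lowest, while for *Adipoq* this ratio was 1.59.

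After the mean of each genotype was subtracted, the adipocyte hormones varied together across the 13 mice. The residual log2 CPM correlated (Pearson r, given as a description) at 0.92 between *Adipoq* and *Rbp4*, 0.87 between *Adipoq* and *Retn*, 0.80 between *Adipoq* and *Nrg4* and 0.80 between *Cfd* and *Nrg4*. Each point is 1 library, so both genes of a pair share its cell content and scaling. Without fl/fl replicate 5 and iADKO replicate 6 these values were 0.85, 0.61, 0.57 and 0.43, with the smallest drop for *Adipoq* with *Rbp4*. *Cfd* lost most of its correlation with *Adipoq* (0.66, and 0.23 without them) and with *Rbp4* (0.42, and -0.096 without them). *Lep* with *Adipoq* was at 0.22 (0.02 without the 2 mice), made up of 0.67 among the fl/fl mice and -0.29 among the iADKO mice, and its highest correlation was with *Apln*, at 0.61 (0.44 without them). *Rarres2* ran opposite to *Nrg4*, at -0.62 (-0.26 without them).

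With the mean of the 8 adipocyte markers, the residual correlations were 0.89 for *Adipoq*, 0.88 for *Retn*, 0.86 for *Rbp4*, 0.80 for *Nrg4*, 0.57 for *Cfd* and 0.36 for *Lep*. *Nampt* (0.18), *Apln* (-0.014) and *Rarres2* (-0.34) showed little or opposite covariation. With the mean of the macrophage markers the order was nearly the reverse, from -0.71 for *Retn* and -0.67 for *Adipoq* to 0.33 for *Rarres2*. Fl/fl replicate 5 had the lowest residual of the adipocyte marker mean (-0.46) and iADKO replicate 6 the highest (0.47). The correlations with marker means are not given without these libraries.

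**Figure D3:**
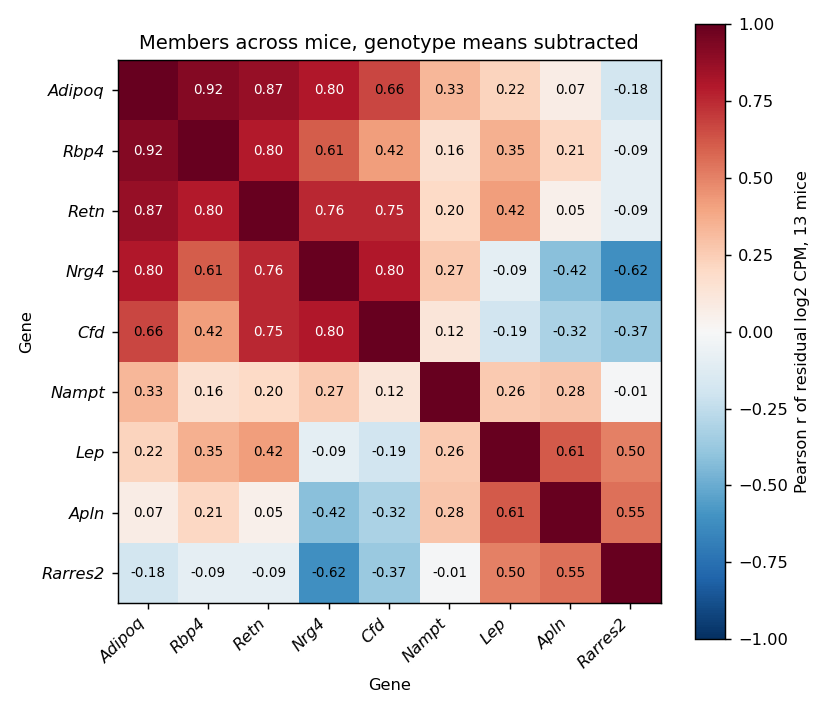
Pearson correlation between adipokine genes across 13 mice (colour from -1 to 1, value in each cell) after the mean log2 CPM of each genotype was subtracted. Adipoq, Rbp4, Retn, Nrg4 and Cfd form a block of positive values from 0.42 to 0.92, while Lep, Apln and Rarres2 correlate with each other and little or negatively with Nrg4 and Cfd. Every value of the block is lower without fl/fl replicate 5 and iADKO replicate 6 (not drawn), from -0.096 for Cfd with Rbp4 to 0.85 for Adipoq with Rbp4.

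The spread of *Lep* followed the series of animal numbers in the library names, a pattern chosen after its values were seen. The labels give all libraries the same batch date and do not say what the animal numbers stand for. The fl/fl mice numbered 747, 749 and 750 had 711, 850 and 714 CPM of *Lep*, those numbered 722 and 726 had 386 and 210 CPM, and those numbered 706 and 707 had 341 and 471 CPM. Among iADKO mice, 748 and 765 had 334 and 345 CPM, 724 and 727 had 188 and 194 CPM, and 974 and 975 had 273 and 142 CPM. In both genotypes the mice numbered 747 to 765 were thus the highest for *Lep*. Differences between the 4 series made up 73.6% of the within-genotype sum of squares of log2 CPM for *Lep*, more than in 99.0% of genes tested, against 21.2% for the median gene and 1.18% for *Adipoq*.

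**Figure D4:**
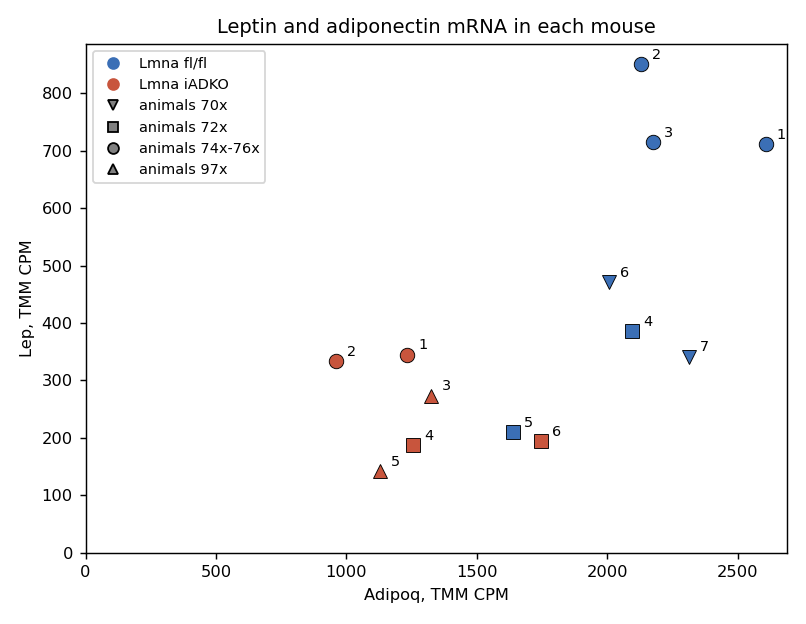
Lep (vertical axis) against Adipoq (horizontal axis) in each of 13 mice, both in TMM-scaled CPM, with colour for genotype, shape for the series of the animal number and the replicate number beside each point. The 5 mice of the 74x-76x series (circles) have the highest Lep of their genotype, while for Adipoq the genotypes overlap by fl/fl replicate 5 and iADKO replicate 6 alone.

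Both genotypes occur in only 2 of the series, so the genotype difference was recomputed within each. Among the mice numbered 747 to 765 (3 fl/fl and 2 iADKO), the log2 difference was -1.16 for *Lep*, -1.08 for *Adipoq*, -1.36 for *Retn*, -0.74 for *Cfd*, -1.67 for *Rbp4*, -1.63 for *Nrg4*, -0.55 for *Nampt*, 0.36 for *Rarres2* and -0.34 for *Apln*. Among those numbered 722 to 727 (2 of each genotype), it was -0.58 for *Lep*, -0.32 for *Adipoq*, -0.70 for *Retn*, -0.48 for *Cfd*, -0.63 for *Rbp4*, -0.92 for *Nrg4*, -0.064 for *Nampt*, 0.25 for *Rarres2* and 0.21 for *Apln*. All 8 genes called kept their direction in both, and all 8 differences were smaller in the second series, the series of fl/fl replicate 5 and iADKO replicate 6. With the series as a block in the fit, 5 of the 7 decreases passed, *Cfd* (-0.60, edgeR adjusted p = 0.0531) and *Nampt* (-0.33, edgeR adjusted p = 0.0712) did not, and *Rarres2* passed (0.31, edgeR adjusted p = 0.0461). Over all genes, 1202 were called lower and 784 higher with this block, against 2737 and 2367 without it.

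For each member the genes most like it across the 13 mice were found by the same residual correlation, among the 10909 genes whose average log2 CPM was 3 or more. *Adipoq* was nearest to *Acp1* (r = 0.96), *Cnbp* (0.96) and *Ivd* (0.95), *Retn* to *Adora1* (0.96), *Rfk* (0.95) and *Ccl11* (0.95), and *Rbp4* to *Prnp* (0.96), *Ano10* (0.95) and *Tmem134* (0.94). *Nrg4* was nearest to *Agmo* (0.97), *Acsm5* (0.95) and *Aldh6a1* (0.94). *Lep* was nearest to *Zhx1* (0.96), *Hspa12a* (0.94) and *Cdc42ep4* (0.94). All 3 genes nearest *Nrg4* and all 3 nearest *Rbp4* were also lower in iADKO, beside 16.3% of all genes tested. So were those nearest *Adipoq*, *Retn* and *Lep*, except that *Acp1*, *Ccl11* and *Cdc42ep4* did not pass. *Cfd* was nearest to *Tbx3* (0.94), *Rasl11b* (0.92) and *Id1* (0.91), none of which passed the test between genotypes. The values were lower for *Nampt* (*Adra1a*, 0.91, *Fmo1*, 0.91, and *Hacd3*, 0.87), *Apln* (*Mlx*, 0.88, *Ptpa*, 0.88, and *Smg5*, 0.88) and *Rarres2* (*Ddx39a*, 0.87, *Dimt1*, 0.86, and *Creb3*, 0.86). These are the highest of many correlations over few mice.

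Of 12 adipokine receptors tested, 2 were lower in iADKO, 3 were higher and 7 did not pass, beside 16.3% lower and 14.1% higher over all genes tested, and whether these shares differ was not tested. *Cmklr1*, the signalling receptor of chemerin, fell from 309 ± 57.5 CPM in fl/fl (SD, n = 7) to 179 ± 17.8 CPM in iADKO (SD, n = 6) with no overlap between genotypes (log2 fold change -0.79, edgeR adjusted p = 0.000416), while its ligand *Rarres2* was higher. *Ccrl2*, which binds chemerin without signalling, was higher at 0.49 (edgeR adjusted p = 0.0361). *Adipor2*, an adiponectin receptor, fell with its ligand (-0.66, edgeR adjusted p = 0.00199). The 8 adipocyte markers had a median log2 fold change of -0.78, and the receptors are not given relative to them. *Adipor1* (-0.14, edgeR adjusted p = 0.0696) and *Cdh13*, which binds adiponectin at the cell surface (-0.28, edgeR adjusted p = 0.0686), did not pass. The leptin receptor *Lepr* was at 0.30 (edgeR adjusted p = 0.111) and the apelin receptor *Aplnr* at -0.20 (edgeR adjusted p = 0.302). *Erbb4*, the receptor of neuregulin 4, was too low to test, at 0.375 CPM in fl/fl and 0.299 CPM in iADKO. *Erbb3*, another receptor of the neuregulin family, was higher (0.56, edgeR adjusted p = 0.0375). Of 4 epithelial markers 2, *Krt8* and *Krt18*, were higher too, with sums of 11.1 to 38.6 CPM in fl/fl and 21.3 to 171 CPM in iADKO, the highest in replicate 6, and their part was not tested. *Cap1*, a reported binding partner of resistin, was higher (0.31, edgeR adjusted p = 0.00179). The number of receptors called lower was 4 without fl/fl replicate 5, without iADKO replicate 6, without both, and with the DESeq2 Wald test. Over all genes, 3285, 3060, 3910 and 3204 were called lower in these fits, against 2737 in the main test. The number of receptors called higher was 1 without any one of fl/fl replicates 1, 2 and 6 or iADKO replicates 3 and 5. It was also 1 with the number series as a block. Over all genes, 1769 to 1935 were called higher without one of these libraries and 784 with the block, against 2367.

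Of 7 C1q/TNF-related genes tested, relatives of adiponectin, *C1qtnf12* was the 1 that passed (-0.57, edgeR adjusted p = 0.00073, no overlap between genotypes). Over all genes tested 30.5% passed, 16.3% lower and 14.1% higher. *Retnla* and *Retnlg*, relatives of resistin known from macrophages and from neutrophils, were both higher while *Retn* was lower. *Retnla* rose from 211 ± 39.4 CPM in fl/fl (SD, n = 7) to 308 ± 53.0 CPM in iADKO (SD, n = 6), by 0.54 on the log2 scale (edgeR adjusted p = 0.00799). *Retnlg* rose by 1.28 on the log2 scale (edgeR adjusted p = 0.0098). *Retnlg* is also 1 of the 5 neutrophil markers, of which the other 4 did not pass, with sums of 18.7 to 177 CPM in fl/fl and 71.7 to 267 CPM in iADKO. Neither *Retnla* nor *Retnlg* passed with the number series as a block.

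Genes that act next to each adipokine were read by list, beside 16.3% lower and 14.1% higher over all genes tested. Whether the share of any list differs from these was not tested. Of 6 genes for the folding and assembly of adiponectin, *Gstk1* (DsbA-L), which promotes its multimerization, was lower (-0.61, edgeR adjusted p = 0.00297) and the chaperones and oxidases *Erp44*, *Ero1a* and *P4hb* did not pass. *Gstk1* no longer passed with the number series as a block. Of 9 genes of NAD salvage and synthesis beside *Nampt*, 3 were lower and none higher: *Nadk2* (-0.47, edgeR adjusted p = 0.000751) and *Nadk* (-0.40, edgeR adjusted p = 0.00052), which make NADP, and *Nmnat3* (-0.43, edgeR adjusted p = 0.0103). Among the genes of retinoid handling beside *Rbp4*, *Rbp7* (-0.96, edgeR adjusted p = 0.00726) and *Aldh1a1* (-0.53, edgeR adjusted p = 0.00219) were lower. With the number series as a block, 1 gene of retinoid handling and 2 of NAD salvage were called lower.

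The alternative complement pathway, which adipsin activates, did not fall with *Cfd*. Of 8 genes tested 4 were higher and none lower, beside 14.1% higher and 16.3% lower over all genes tested. Whether these shares differ was not tested. The 4 were the receptors *C5ar1* (0.97, edgeR adjusted p = 0.00357), *C5ar2* (0.92, edgeR adjusted p = 0.00264) and *C3ar1* (0.89, edgeR adjusted p = 0.0111), and properdin (*Cfp*). *C3*, the central component, was at 6412 ± 1801 CPM in fl/fl (SD, n = 7) and 7545 ± 1783 CPM in iADKO (SD, n = 6) and did not pass (0.23, edgeR adjusted p = 0.38), nor did factor B, the substrate of adipsin (*Cfb*, 0.44, edgeR adjusted p = 0.0916). Without fl/fl replicate 5 and iADKO replicate 6, 7 of the 8 were higher, while over all genes the number called higher rose from 2367 to 3282. These receptors are expressed by macrophages, whose markers are given above, and the part of those cells was not tested.

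Among 17 other secreted factors of fat, 6 were lower, 2 higher and 9 did not pass, beside 16.3% lower and 14.1% higher over all genes tested. Whether these shares differ was not tested. The number of these factors called higher was 0 with the number series as a block and 4 with the replicate number as a block. *Ccn5*, also called WISP2, a secreted matricellular protein, was lower by the most, with 13.7 ± 8.09 CPM in fl/fl (SD, n = 7) and 3.76 ± 0.637 CPM in iADKO (SD, n = 6). Its log2 fold change was -1.86 (edgeR adjusted p = 0.0029). *Agt*, angiotensinogen, was at -1.07 (edgeR adjusted p = 0.00231) with no overlap between genotypes, and *Angptl8*, a regulator of lipoprotein lipase, was at -0.98 (edgeR adjusted p = 0.0249). The median log2 fold change was -0.21 in this list, 0.23 for the receptors, 0.58 for the complement genes and -0.75 for the 9 adipokines, beside 0.033 over all genes tested.

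**Figure D5:**
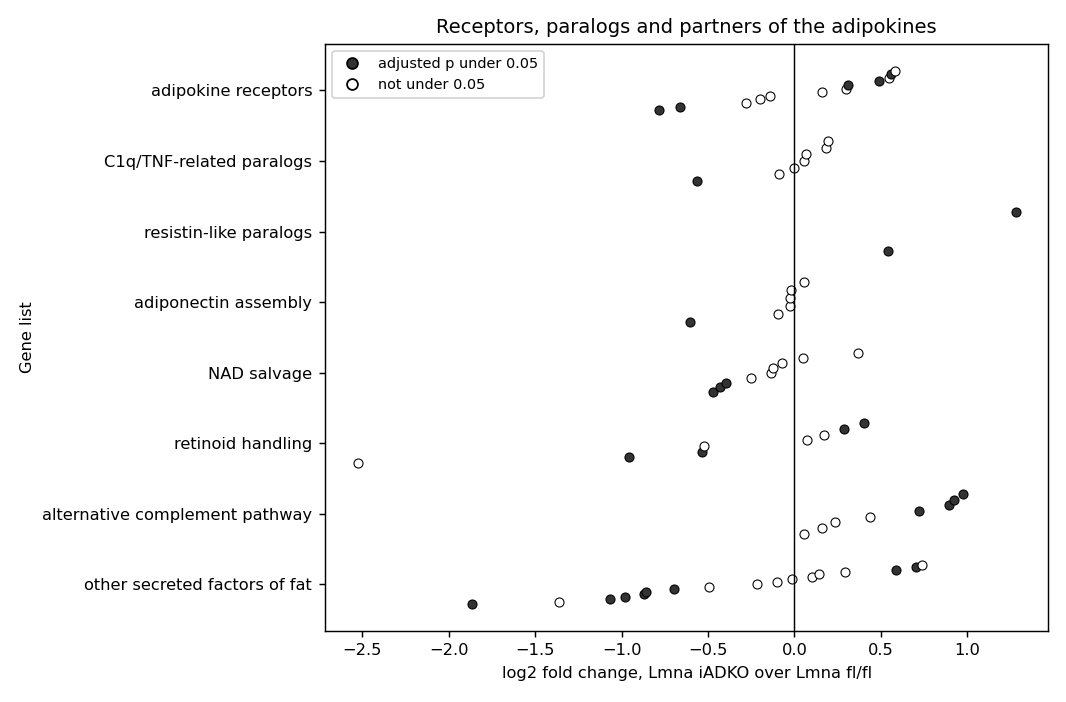
Log2 fold change, iADKO over fl/fl (horizontal axis), of every tested gene in 8 lists of adipokine receptors, paralogs and partners, with filled points at an edgeR adjusted p under 0.05 and open points for the rest. The complement genes called all lie above 0, the receptors called lie on both sides, and the lowest point called is Ccn5 at -1.86.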

How the data were processed

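Whole pmWAT of 13 female mice was sequenced by the study, and genotype and replicate were taken from the sample labels. The authors deposited raw counts per gene for 33618 Ensembl identifiers, without normalization, and log2 values made from them by DESeq2's regularized log (rlog). Per the labels and the study's methods, strand-specific libraries were checked with FastQC 0.12.1 and aligned with STAR 2.7.11a to mm39, and the counting tool, its annotation and its strand setting are not given in the sources used here. GENCODE vM39 (GRCm39) held 33184 of the identifiers and gave symbols, coordinates and exon lengths. Counts were filtered with filterByExpr, scaled by TMM and tested by edgeR 4.0.16 (robust quasi-likelihood, R 4.3.3) at a Benjamini-Hochberg adjusted p of 0.05 over all genes tested. Log2 CPM use a prior count of 2. No covariate was used. Total counts per library differed by little, so precision is set by the spread between mice. Libraries of the same genotype differed by more than counting error (chi-square per degree of freedom 8.16 to 88.8), so none was a copy of another.

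All 9 members were named. From each list, up to 3 genes with the largest change among those called, with an average log2 CPM of 1 or more, and the receptors or partners of members were named. Genes most like a member were the 3 with the highest residual correlation. *Cfp*, *Ccrl2*, *Cap1* and the genes of a list that did not pass were named beside these. Members, lists, markers and tests were chosen with earlier results of these data known. Alternatives were DESeq2 size factors, the DESeq2 1.42.0 Wald test, genes unfiltered or kept at 10 counts or more in all samples, a block for the replicate number or for the series of animal numbers, limma 3.58.1 on the deposited rlog log2 values, 4 of the 8 adipocyte markers for scaling, each library left out in turn and, added after the data were seen, fl/fl replicate 5 and iADKO replicate 6 left out together. The methods were tested on simulated data. A part of the results on retinoid handling is not reported here.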

Additional observations from a re-analysis of the deposited data

Results flagged for a closer look

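For each member and genotype, the gap between the most extreme mouse and its neighbour was divided by the range of log2 CPM over the genotype and compared with Dixon's critical value at the 95% level, which chance passes in about 1 of 20 groups. Of 18 groups, 2 passed. *Retn* in fl/fl replicate 5 had a ratio of 0.65, as the lowest of 7 mice at 1140 CPM. *Nrg4* in iADKO replicate 6 had a ratio of 0.641, as the highest of 6 mice at 112 CPM. Without fl/fl replicate 5 the log2 fold change of *Retn* was -1.22 (edgeR adjusted p = 0.000117), and without iADKO replicate 6 that of *Nrg4* was -1.55 (edgeR adjusted p = 3.43e-06). Both calls were kept. Each of these mice was the one of its genotype nearest the other genotype, so leaving it out widens the difference. That the calls were kept therefore adds no support.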

How the results depend on the processing

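The members called lower numbered 5 to 7 over 21 alternatives, and *Rarres2* was called higher in all of them. Of the 9 log2 fold changes, none changed sign, and 4 values no longer passed: *Lep* with no filter (-1.11) and without iADKO replicate 4 (-1.03), and *Cfd* (-0.60) and *Nampt* (-0.33) with the number series as a block. That block left 1202 genes called lower and 784 higher, against 2737 and 2367, and the cause was not tested. Relative to 4 of the 8 adipocyte markers (*Fabp4*, *Pparg*, *Cebpa* and *Acvr1c*), 190 genes were called lower in place of 99, *Adipoq* turned to -0.061 and *Cfd* to -0.034, neither past the test, and *Nampt* (0.33, edgeR adjusted p = 0.0520) no longer passed. Relative *Lep* ranged from -0.38 without iADKO replicate 2 to 0.011 without fl/fl replicate 2, and the cause was not tested. Same-numbered mice were not shown to be pairs: over 6 pairs their residuals correlated at -0.026 to 0.217 (mean 0.107, against -0.020 for other pairs), and 2 of 6 iADKO mice correlated best with their own number. With the replicate number as a block the 7 lower and 1 higher calls were kept, with *Lep* at -1.11 (edgeR adjusted p = 0.00134), and over all genes 2454 were lower and 2379 higher. The level of *Apln*, 232 counts at the lowest, sets the poorest counting precision of the 9.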
